A study of Mus musculus with 6 samples.

Results

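The comparison described here is that of mouse small intestinal organoids given the low dose of doxycycline with untreated organoids. Its members are the 2 libraries at 0.1 µg/ml and the 2 untreated libraries, 4 of the 6 libraries of the series. All 16975 genes of the 55416 in the count table that were expressed highly enough were tested. The expression filter used all 6 libraries, so a gene can be kept through the 2 libraries of the higher dose alone. Small intestinal organoids are 3-dimensional epithelial structures that crypt cells form in a gel. Every group, the untreated one included, came from mice of 4 to 8 weeks that were homozygous (Tg/Tg) for Rosa26-rtTA and also Tg/Tg for Col1A1-TetO-OSKM, and was grown in IntestiCult medium. The Rosa26 allele drives the doxycycline-responsive transactivator rtTA, and the Col1a1 allele carries the genes of Oct4 (Pou5f1), Sox2, Klf4 and Myc behind a tetracycline-responsive promoter. Treated organoids received 0.1 or 0.5 µg/ml doxycycline for 3 days. No organoids without the transgenes were given the drug, so an effect of doxycycline itself and one of the factors cannot be told apart. The series calls the libraries of a group biological replicates and does not say whether they are separate mice or lines, so the p values measure the spread between these samples only.

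The 4 factors together can return differentiated cells to pluripotency, a process in which the original identity is lost step by step. Klf4 and Myc also have roles of their own in the gut: Klf4 is a factor of differentiated villus and goblet cells, and Myc drives crypt proliferation and ribosome production. The small intestinal epithelium itself consists of stem cells at the crypt base, absorptive enterocytes that digest and take up food, and secretory cells, which are the Paneth, goblet, enteroendocrine and tuft cells.

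In units of 1e+06 expected counts, the untreated libraries held 48.3 and 48.4 and the low-dose libraries 72.5 and 48.6. Low-dose replicate 1 was thus the deepest library. Replicate libraries of the 2 groups had correlations of log2 CPM of 0.994 and 0.995, where CPM is counts per 1e+06 after scaling between libraries, but their counts differed by more than sampling noise. Of 8 epithelial markers 4 were higher and 2 lower, and their summed level was 4818 and 4709 CPM in the untreated and 5835 and 5656 CPM in the low-dose libraries. Fibroblast markers summed to 0.972 and 1.22 CPM in the untreated and 0.869 and 0.714 CPM in the low-dose libraries, with 2 of 12 expressed highly enough to test and Lum at 0 counts in all 4. Of 13 immune markers 4 were tested, and Cd3g, Adgre1 and Tyrobp had no count in these libraries. The summed immune markers, 191 and 168 CPM in the untreated and 126 and 142 CPM in the low-dose libraries, were almost wholly Lcp1, which fell from 186 and 164 to 119 and 135 CPM. Of 3 tested endothelial markers 2 were higher and 1 lower, or 1 and 1 without any 1 of the 4 libraries. Endothelial markers summed to 5.35 and 5.43 against 5.52 and 4.995 CPM, with Cdh5, Cldn5 and Emcn at 0 counts. Those of neurons and glia summed to 3.24 and 3.15 against 3.01 and 3.43 CPM.

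The 4 factor genes, which check the labels, were all higher at the low dose. Pou5f1 had 0.243 and 0.1396 CPM in the untreated libraries, 136 and 141 CPM at 0.1 µg/ml and 486 and 512 CPM at 0.5 µg/ml. Sox2 had 0.101 and 0.319, then 83.3 and 86.3, then 294 and 325 CPM. Klf4 had 32.9 and 28.2 CPM untreated, 223 and 224 CPM at the low dose and 746 and 772 CPM at the higher one, and Myc had 44.97 and 43.8, 240.2 and 259 and 791 and 878 CPM. No group overlapped its neighbour for any of the 4 genes. Untreated and low-dose libraries did not overlap in 67.8% of all tested genes. Transgene reads and reads of the native genes are not separated in these counts.

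The organoids differed from untreated ones in 3 main ways at the low dose. Genes of the enterocyte surface and of fat, sugar and drug handling were higher, although many of them stood lower again at 0.5 µg/ml. Genes of stratified and gastric surface epithelium rose, several of them from almost no reads. Genes of the crypt base and of the Paneth and enteroendocrine lineages fell, and those of ribosome production, which the higher dose raised, mostly did not pass the test. The test called 34.6% of all tested genes, 20.8% of them higher and 13.8% lower (edgeR quasi-likelihood test on all 6 libraries, two-sided, Benjamini-Hochberg adjusted p under 0.05). Past the test and at least 2-fold, 1172 genes (6.9%) were higher and 466 (2.75%) lower. A difference of 16-fold or more was reached by 340 genes that rose and 1 that fell, and the middle rise was 0.51 against a middle fall of 0.42 on the log2 scale. Of the genes that rose, 894 were under 1 CPM in the untreated organoids. The median log2 fold change of all tested genes was 0.02.

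**Figure D1:**
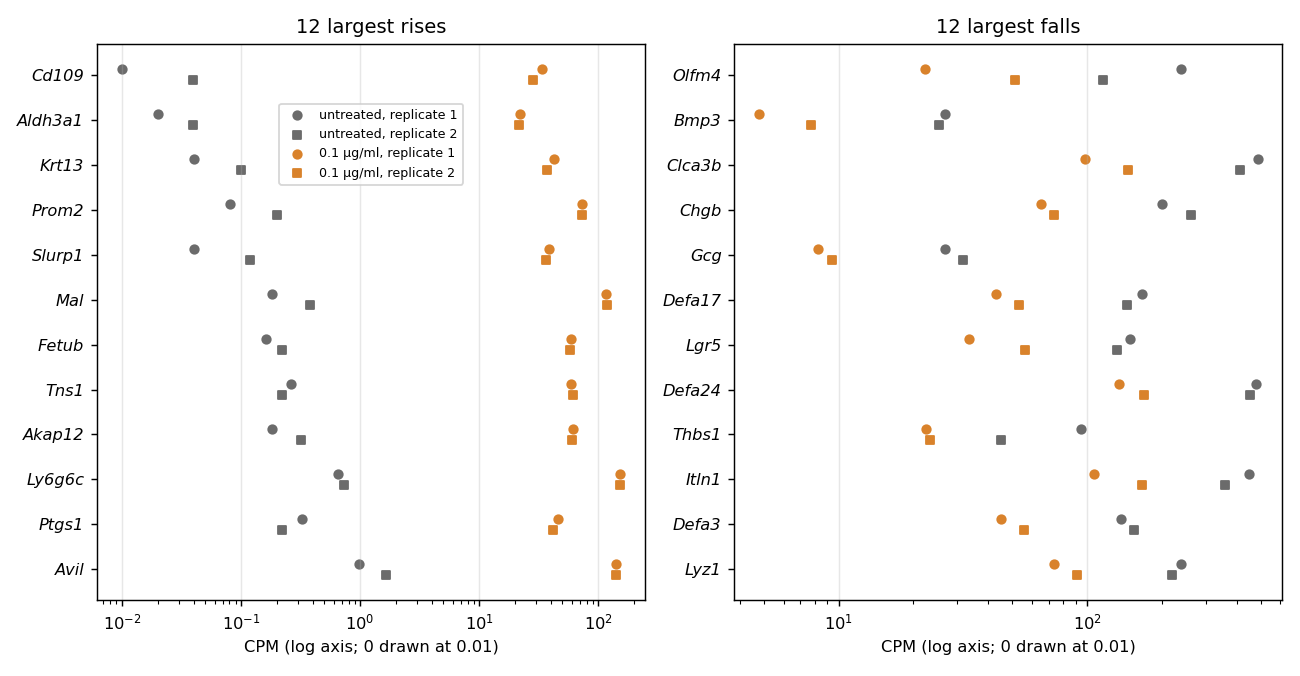
Level in each library of the 12 genes with the highest (left) and the 12 with the lowest (right) log2 fold change at 0.1 µg/ml against untreated, among genes of at least 20 CPM in a group, in CPM on log axes with a value of 0 drawn at 0.01. Grey marks are the 2 untreated and orange marks the 2 low-dose libraries. Every orange mark on the left is above 20 CPM while the grey ones are under 2 CPM, and on the right the untreated libraries keep over 20 CPM with the low-dose ones below them.

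Among genes of at least 20 CPM in either group, the largest rises were in genes that untreated organoids barely expressed, several of them genes of surface epithelia. Cd109, a membrane-anchored co-receptor of the TGF-beta system, went from 0 and 0.0399 CPM to 33.6 and 28.3 CPM. Its 2 untreated libraries held 2 counts and the low-dose ones 3823, a ratio of 1560 with an exact 95% interval of 433 to 12900, which covers counting error only. Aldh3a1, an aldehyde dehydrogenase of cornea and stomach, went from 3 counts to 2646, a ratio of 722 (247 to 3500). Both genes were therefore close to absent before the drug and plainly present in both treated libraries.

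Krt13, the keratin of the upper layers of stratified mucosa, had 0.0405 and 0.0997 CPM in the untreated libraries and 42.5 and 36.8 CPM at the low dose (log2 fold change 9.09, SE 0.18). Prom2, a membrane protein of cell protrusions, had 0.08103 and 0.199 CPM and then 72.3 and 72.2 CPM (log2 fold change 8.98, SE 0.12). Slurp1, a secreted Ly6-family protein of stratified epithelium, went from 0.0405 and 0.1197 to 38.7 and 36.5 CPM. Mal, a lipid raft protein of apical sorting, went from 0.182 and 0.379 to 116 and 117 CPM, and Ly6g6c, another Ly6-family gene, from 0.648 and 0.738 to 151 and 153 CPM. The remaining genes of this group have no tissue common to all of them, though Avil and Ptgs1 are both in the tuft cell list. Fetub, a plasma protease inhibitor made by the liver, went from 0.162 and 0.219 to 59.1 and 57.4 CPM, and Tns1, the focal adhesion protein tensin 1, from 0.263 and 0.219 to 58.8 and 61.5 CPM. Akap12, a scaffold that anchors protein kinases, went from 0.182 and 0.319 to 61.3 and 59.96 CPM. Avil, an actin-binding protein of tuft cells, had 0.972 and 1.64 CPM untreated and 141 and 141 CPM at the low dose, and Ptgs1 had 0.324 and 0.219 and 45.99 and 41.7 CPM. All 12 were higher again at 0.5 µg/ml than at 0.1 µg/ml.

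The 12 largest falls among genes of at least 20 CPM in either group were smaller, between -1.48 and -2.299 on the log2 scale, and included crypt base and secretory genes. Olfm4, a secreted glycoprotein of crypt base stem cells, had 239.6 and 116 CPM in the untreated libraries and 22.2 and 51.2 CPM at the low dose (log2 fold change -2.299, SE 0.38), with a wide gap between replicates on both sides. Bmp3, an atypical BMP ligand that opposes BMP signalling, had 26.9 and 25.3 CPM and then 4.79 and 7.75 CPM (log2 fold change -2.08, SE 0.19). Clca3b, a member of the calcium-activated chloride channel regulator family, had 485 and 412 CPM and then 98.03 and 147 CPM. The granule protein gene Chgb fell from 200.3 and 262 to 64.98 and 73.3 CPM, and Itln1, a lectin of Paneth and goblet cells, from 447 and 360.2 to 107 and 166 CPM. Thbs1, the matrix glycoprotein thrombospondin 1, had 94.4 and 45.04 CPM untreated, 22.4 and 23.4 CPM at the low dose and 56.5 and 48.8 CPM at 0.5 µg/ml. It is the one of these 12 that stood higher at 0.5 than at 0.1 µg/ml, and its untreated replicates, like those of Olfm4, lay far apart.

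The promoters of the leading genes that have an entry in the RefSeq promoter table of assembly GRCm38.p6 are shown because these genes head the 2 ends of the response. Each runs from 250 bases before to 50 bases after the transcription start, 5′ to 3′ on the gene's strand. Capitals mark matches to 4 motifs searched on both strands: CACGTG (the E-box bound by Myc), CCACCC (bound by Klf factors), ATTTGCAT (the octamer bound by Oct factors) and ATTGTT (bound by Sox factors). The Krt13 window, chr11:100121517-100121816 on the minus strand, is the first of 2 for this gene and holds CCACCC or its reverse complement 4 times.
Krt13: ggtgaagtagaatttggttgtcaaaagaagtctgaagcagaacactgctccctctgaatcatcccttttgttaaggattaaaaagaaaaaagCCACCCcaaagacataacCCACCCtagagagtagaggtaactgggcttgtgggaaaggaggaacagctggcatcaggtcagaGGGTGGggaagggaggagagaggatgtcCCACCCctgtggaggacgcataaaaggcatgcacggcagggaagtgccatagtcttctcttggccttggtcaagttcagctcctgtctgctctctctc
The Prom2 window, chr2:127541368-127541667 on the minus strand, holds none of the 4 motifs.
Prom2: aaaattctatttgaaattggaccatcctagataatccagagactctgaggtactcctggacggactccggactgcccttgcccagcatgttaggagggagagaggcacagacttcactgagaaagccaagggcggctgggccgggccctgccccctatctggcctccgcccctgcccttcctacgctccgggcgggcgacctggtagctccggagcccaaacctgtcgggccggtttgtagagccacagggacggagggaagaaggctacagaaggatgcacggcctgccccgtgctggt
The Olfm4 window, chr14:80000052-80000351 on the plus strand, holds the reverse complement of CCACCC 2 times.
Olfm4: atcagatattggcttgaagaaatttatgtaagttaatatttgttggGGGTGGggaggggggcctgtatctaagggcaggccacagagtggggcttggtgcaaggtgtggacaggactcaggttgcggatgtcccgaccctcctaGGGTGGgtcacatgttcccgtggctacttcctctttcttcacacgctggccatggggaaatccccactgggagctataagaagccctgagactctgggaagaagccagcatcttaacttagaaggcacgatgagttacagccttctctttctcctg
The Clca3b window, chr3:144849253-144849552 on the minus strand, holds the reverse complement of ATTTGCAT once.
Clca3b: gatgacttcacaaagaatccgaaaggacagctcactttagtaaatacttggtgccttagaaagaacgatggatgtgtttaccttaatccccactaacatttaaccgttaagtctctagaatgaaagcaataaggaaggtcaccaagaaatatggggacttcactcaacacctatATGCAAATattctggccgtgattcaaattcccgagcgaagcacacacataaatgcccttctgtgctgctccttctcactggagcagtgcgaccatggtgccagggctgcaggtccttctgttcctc
Over the windows of all tested genes, 14568 windows of 11459 genes, 36.9% held CCACCC, 9.52% CACGTG, 6.04% ATTGTT and 1.41% ATTTGCAT. For genes higher at the low dose the shares were 41.4%, 8.49%, 5.95% and 1.84% in that order, and for genes lower 38.4%, 8.86%, 6.1% and 1.25%. For genes that did not pass they were 34.9%, 10.1%, 6.06% and 1.29%. The motifs do not overlap each other's letters, and a match is a description of the letters, not of a bound site.

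On the scale of transcript share (TPM, transcripts per 1e+06, which corrects for length), the genes that gained most were not those with the largest folds. Sprr2a2, a small proline-rich protein of surface epithelia, went from a mean of 4214 to 10939 TPM, but the Sprr2a copies are near-identical and reads may be divided among them wrongly. The calcium-binding S100a6 went from 223 to 755 TPM. Gains were also seen in 3 actin and membrane genes: Tmsb4x, the actin-monomer binder thymosin beta 4, rose from 808 to 1365 TPM, Crip1, a LIM protein of the intestine, from 379.8 to 816 TPM, and the actin gene Actg1 from 1891 to 2320.4 TPM. Gapdh rose from 5489.7 to 6149 TPM, the mitochondrial creatine kinase Ckmt1 from 647 to 1097 TPM and the galectin Lgals4 from 1459 to 1888 TPM. The largest losses were of the metallothioneins Mt2, from 5858 to 3474 TPM, and Mt1, from 6112 to 4135 TPM. Paneth and goblet products followed, with the alpha-defensins Defa24 (2566 to 813 TPM), Defa17 (960.2 to 289 TPM) and Defa3 (839 to 283 TPM) and the trypsin inhibitor Spink4 (1334 to 499 TPM). Rps27, a ribosomal protein, went from 7054 to 5963 TPM and Tpt1, a translationally controlled growth protein, from 3940.2 to 3429 TPM. The alpha-defensins are near-identical copies too, so the share of each is uncertain while the fall was seen across them.

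**Figure D2:**
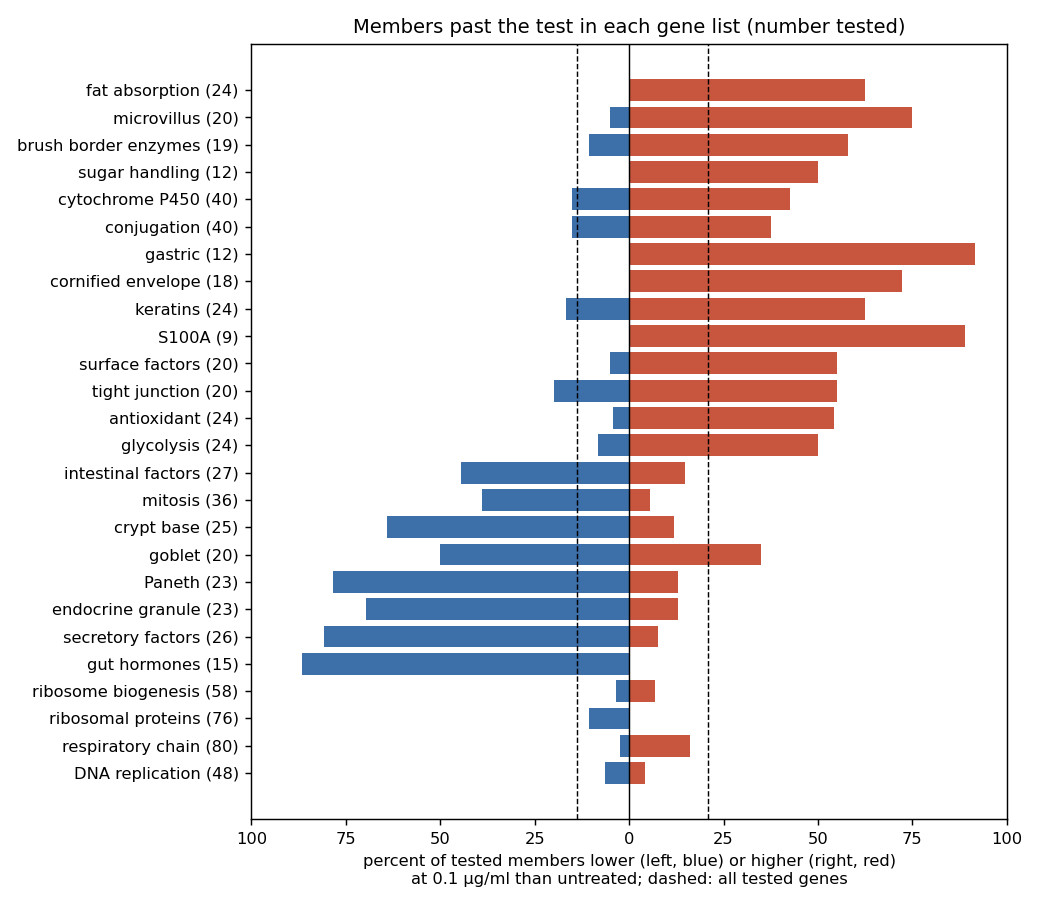
Percent of the tested members of each gene list that were higher (right, red) or lower (left, blue) at 0.1 µg/ml than untreated, with the number tested in brackets. Dashed lines mark the shares over all tested genes, 20.8% higher and 13.8% lower, and the lists of absorptive and surface genes reach past the right line while hormone, Paneth and secretory factor lists reach past the left one.

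The absorptive machinery was higher at the low dose. In bulk RNA more cells of a type and more RNA per cell cannot be told apart, and this holds for every cell type named here. Of 24 genes of fat uptake and chylomicron assembly, 15 were higher and 0 lower, against 20.8% and 13.8% of all genes, with a median log2 fold change of 0.30. In this and the other gene groups, members are named and ranked mainly among those of at least 5 CPM in either group, and members below that level can have larger folds. Cd36, the fatty acid receptor of the enterocyte surface, had 1.78 and 1.56 CPM untreated and 7.82 and 4.95 CPM at the low dose (log2 fold change 1.95, SE 0.22). Apoa1 and Apoa4, apolipoproteins of the chylomicron, had 37.8 and 49.6 CPM and 259.5 and 313 CPM untreated, and 111 and 76.6 CPM and 676 and 512 CPM at the low dose. For Apoa4 the log2 fold change was 1.06 with SE 0.13 (edgeR, Benjamini-Hochberg adjusted p = 1.80e-04). Apoc3, which slows clearance of these particles, had a log2 fold change of 0.92, and Creb3l3, a membrane-bound factor that regulates apolipoprotein genes, had 41.2 and 45.996 CPM and then 87.02 and 68.3 CPM. The packaging genes moved less: Mttp, which loads fat onto apolipoprotein B, went from 527 and 574 to 758 and 607 CPM. The intracellular fatty acid binder Fabp1, at 264 and 383 CPM and 445 and 342 CPM, overlapped between the groups and did not pass.

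Digestive enzymes of the brush border showed a split. Of 19 tested, 11 were higher and 2 lower, with a median of 0.66. Sis, the sucrase-isomaltase, went from 649 and 762 to 1341 and 997 CPM and the phosphatase Alpi from 58.9 and 65.2 to 155 and 116 CPM. The trehalase Treh (log2 fold change 1.25, SE 0.17), the ectonucleotidase Enpp3 (log2 fold change 1.19, SE 0.14) and the meprin subunit Mep1b (log2 fold change 1.17, SE 0.12) were among the strongest. In contrast Anpep, aminopeptidase N, fell from 85.8 and 103 to 55.2 and 51.9 CPM, and Dpp4, dipeptidyl peptidase 4, from 104 and 115 to 82.5 and 71.9 CPM. The lactase gene Lct and the maltase-glucoamylase gene Mgam did not pass (log2 fold changes 0.38 and 0.02).

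Microvillus structure and sugar handling rose as well. Of 20 microvillus genes 15 were higher and 1 lower, median 0.39. Espn, the actin-bundling espin, had 20.5 and 19.11 CPM untreated, 52.8 and 51.5 CPM at the low dose and 54.2 and 55.1 CPM at 0.5 µg/ml, and Myo1a, the brush border myosin, 128 and 146, 311 and 273 and 319 and 321 CPM. These 2 genes reached their level at the low dose and kept it. The scaffold Slc9a3r1 (log2 fold change 0.77, SE 0.04) and the protocadherins of the intermicrovillar links, Cdhr5 (log2 fold change 0.54, SE 0.06) and Cdhr2 (log2 fold change 0.51, SE 0.07), were also higher, whereas Baiap2l1, an actin-regulating adaptor, was lower (log2 fold change -0.24, SE 0.04). Of 12 sugar genes 6 were higher and 0 lower, median 0.36. The glucose transporter Slc2a2 had 11.7 and 17.5 CPM and then 38.9 and 24.7 CPM, and the fructose transporter Slc2a5 (log2 fold change 0.55, SE 0.09), the fructose-path enzyme Tkfc (log2 fold change 0.46, SE 0.09) and the sodium-glucose carrier Slc5a1 (log2 fold change 0.35, SE 0.07) rose less.

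Enzymes that process drugs and other foreign compounds made up the next group. Of 40 tested cytochrome P450 genes 17 were higher and 6 lower (median 0.28), and of 40 conjugating enzymes 15 were higher and 6 lower (median 0.23). Cyp4f39, a fatty acid hydroxylase of the epidermis, stood apart, with 0.648 and 0.858 CPM untreated, 49.6 and 48.7 CPM at the low dose and 328 and 358 CPM at 0.5 µg/ml. Cyp2b10, a drug-induced P450, had 80.1 and 90.5, then 244 and 172, then 84.3 and 87.9 CPM, and Cyp3a13 66.3 and 69.99, 183 and 149.96 and 121 and 142 CPM. Cyp1b1 (log2 fold change 2.45, SE 0.19) and Cyp4f14 (log2 fold change 1.22, SE 0.09) were also higher. Members of at least 5 CPM that fell included Cyp2c67 (log2 fold change -0.63, SE 0.12), Cyp2c70 (log2 fold change -0.62, SE 0.11) and Cyp4b1 (log2 fold change -0.61, SE 0.10). Among transferases the sulfotransferases Sult2b1 (log2 fold change 2.14, SE 0.10) and Sult6b2 (log2 fold change 1.81, SE 0.14) were higher, and Sult1b1 went from 12.8 and 17.1 to 57.9 and 40.7 CPM. The glucuronosyltransferases Ugt1a6b (log2 fold change 1.96, SE 0.08) and Ugt1a6a (log2 fold change 1.52, SE 0.11) were higher too, but they share most of their sequence and cannot be separated surely. Ugt2b36 (log2 fold change -0.37, SE 0.10) and Gstt1 (log2 fold change -0.32, SE 0.09) led the falls.

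**Figure D3:**
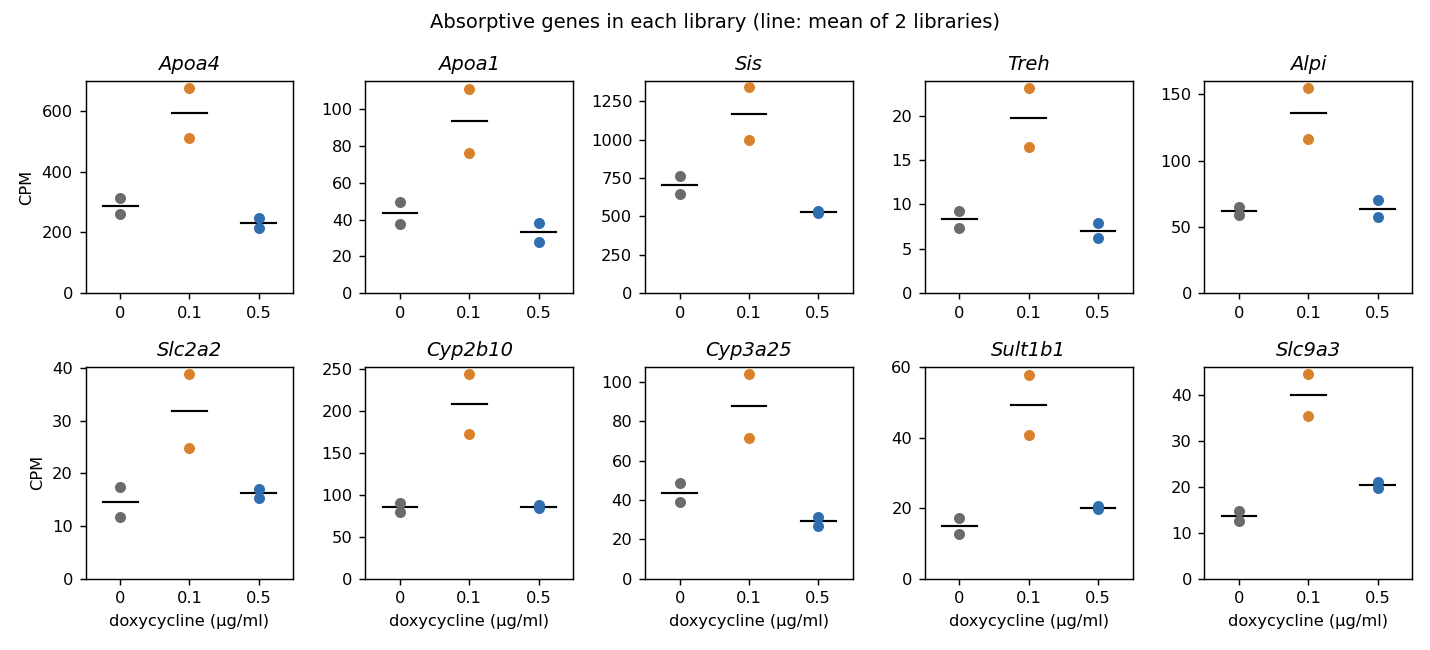
Level in each library, in CPM on linear axes from 0, of 10 absorptive and transport genes at 0, 0.1 and 0.5 µg/ml doxycycline, with a line at the mean of the 2 libraries. In each panel the 2 low-dose points are the highest, with Apoa4 at 676 and 512 CPM. The 0.5 µg/ml points lie nearer to the untreated ones. Cyp2b10, Sult1b1 and Slc9a3 were named because they turned at 0.5 µg/ml, so their order follows largely from that choice. The other genes shown are a selection too, and Espn, Myo1a and Cyp4f39, which are not shown, did not stand lower at 0.5 µg/ml.

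Apart from the microvillus genes, most members of these lists stood lower at 0.5 µg/ml than at the low dose. The low dose was not the high point for every member, because not all had risen there. Of the 40 P450 genes, 17 were higher and 6 lower at the low dose than untreated. In the same list 5 genes were higher at 0.5 µg/ml than at the low dose. Against the low dose, 0.5 µg/ml gave lower levels of 23 of 24 fat absorption genes, 17 of 19 brush border enzymes, 11 of 12 sugar genes, 30 of 40 P450 genes and 30 of 40 conjugating enzymes, where 29.1% of all tested genes were lower and 29.8% higher. The 2 comparisons share the low-dose libraries, so their signs are not independent. Apoa4, for instance, stood at 216 and 248 CPM at 0.5 µg/ml, Alpi at 70.2 and 57.4 CPM, and Slc2a2 at 15.4 and 17.03 CPM. Microvillus genes were divided, with 6 higher and 8 lower. The size of the rise leans on low-dose replicate 1, the deepest library: it was above replicate 2 in 24 of 24 fat absorption genes, 18 of 19 brush border enzymes, 12 of 12 sugar genes and 36 of 40 conjugating enzymes, against 51.8% of all genes. Without it, 9 of the fat absorption genes were higher and 0 lower, and without low-dose replicate 2 the counts were 19 and 0. The brush border counts without replicate 1 were 9 and 3, and the sugar counts were 4 and 0 without replicate 1 and 10 and 0 without replicate 2. Conjugating enzymes were 18 higher and 2 lower without low-dose replicate 2, and 17 and 2 without untreated replicate 2. The untreated replicates leaned as well, with replicate 2 above replicate 1 in 22 of 24 fat absorption genes.

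The factors that set intestinal identity did not follow the enterocyte genes upward. Of 27 intestinal transcription factors 4 were higher and 12 lower, median -0.15, and without low-dose replicate 2 the counts were 7 and 9. Cdx2, the factor that specifies intestine, went from 176 and 179 to 139 and 138 CPM and on to 59.98 and 57.1 CPM at 0.5 µg/ml. Hnf4a, a factor of enterocyte genes, went from 835 and 812 to 679.6 and 691 CPM, and Vdr, the vitamin D receptor, from 363 and 364 to 263 and 259.8 CPM. In each of the 3 genes the replicates lay close together. The groups did not overlap either, which held for 67.8% of all tested genes and for every gene past the test. The pioneer factors Foxa2 (log2 fold change -0.71, SE 0.15) and Foxa3 (log2 fold change -0.65, SE 0.11) fell, while Gata4 and Hnf4g did not pass (log2 fold changes -0.04 and 0.11). The 4 that rose were Prdm1, which encodes the repressor Blimp1 of the fetal and suckling gut (log2 fold change 1.76, SE 0.10), Gata5 (log2 fold change 0.56, SE 0.09), the epithelial factor Elf3 (log2 fold change 0.505, SE 0.07) and Isx, a regulator of vitamin A uptake, which went from 2 counts in all to 1.41 and 1.59 CPM.

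Most factors of the secretory lineages were lower at the low dose. Of 26 secretory lineage factors 2 were higher and 21 lower, median -1.06. Neurog3, which commits cells to the enteroendocrine fate, had 14.4 and 15.8 CPM untreated, 5.79 and 7.07 CPM at the low dose and 2.11 and 1.75 CPM at 0.5 µg/ml (log2 fold change -1.24, SE 0.12 for the low dose; edgeR, Benjamini-Hochberg adjusted p = 3.97e-05). Rfx6 (log2 fold change -1.45, SE 0.17) and Insm1 (log2 fold change -1.09, SE 0.10), later factors of that lineage, fell beside it, as did Creb3l1, a factor of secretory capacity (log2 fold change -1.15, SE 0.16), and Sox4, a factor of early secretory progenitors, which went from 144 and 118 to 59.1 and 72.2 CPM. The 2 that rose were Pou2f3, the tuft cell factor (log2 fold change 1.66, SE 0.17), and Bhlha15, which builds up the secretory apparatus (log2 fold change 0.48, SE 0.10).

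All but 2 of 15 tested gut hormone and serotonin genes fell and 0 rose, median -1.42. Gip, the glucose-dependent insulinotropic peptide, had 12.9 and 20.3 CPM untreated and 2.86 and 2.81 CPM at the low dose (log2 fold change -2.55, SE 0.20). Gcg, the proglucagon gene, had 26.8 and 31.6 CPM, then 8.29 and 9.42 CPM, then 1.37 and 1.75 CPM at 0.5 µg/ml. Tac1 (substance P, log2 fold change -2.17, SE 0.14), Sst (somatostatin, log2 fold change -2.09, SE 0.16) and Tph1, the serotonin-making enzyme (log2 fold change -1.85, SE 0.17), were near Gip in size. Granule genes went with them, 16 of 23 lower and 3 higher, median -1.18. Among those of at least 5 CPM the granins Scg2 (log2 fold change -1.87, SE 0.16) and Chgb (log2 fold change -1.74, SE 0.12) and the prohormone convertase Pcsk1 (log2 fold change -1.57, SE 0.14) led the falls, and Abcc8, the sulfonylurea receptor, rose (log2 fold change 1.89, SE 0.12). Without low-dose replicate 1 the counts were 13 lower hormone genes and 15 lower granule genes.

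Of 23 Paneth cell products 18 were lower and 3 higher, median -1.19. Lyz1, the Paneth lysozyme, had 239 and 219 CPM untreated and 73.5 and 91.1 CPM at the low dose, and Defa24 had 477 and 451 CPM, then 135 and 169 CPM, then 48.6 and 46.6 CPM at 0.5 µg/ml. Guca2b, the hormone uroguanylin, which enterocytes make as well, rose from 29.5 and 30.1 to 68.5 and 56.3 CPM. Goblet genes went both ways, 10 of 20 lower and 7 higher, median -0.17, with 4 higher when low-dose replicate 2 was left out. Muc2, the secreted gel mucin, went from 232 and 249.6 to 114 and 139 CPM, and the chemokine Ccl9 (log2 fold change -1.96, SE 0.22), the calcium pump Atp2c2 (log2 fold change -1.49, SE 0.12), Spink4 (log2 fold change -1.37, SE 0.09) and the trefoil peptide Tff3 (log2 fold change -0.65, SE 0.07) fell. The potassium channel Kcnk6 (log2 fold change 1.97, SE 0.06) and Bcas1 (log2 fold change 1.08, SE 0.11) rose, as did Zg16, a lectin of mucus granules, which had 5.57 and 7.201 CPM, then 19.97 and 17.8 CPM, then 7.56 and 7.58 CPM at 0.5 µg/ml. Muc2 fell while Zg16 rose, so the goblet list did not move as 1 block. Tuft cell genes were the exception among secretory lineages, 9 of 15 higher and 2 lower, median 1.42, with 7 and 1 when untreated replicate 1 or low-dose replicate 1 was left out, 9 and 1 without untreated replicate 2 and 8 and 1 without low-dose replicate 2. Only 15 of the 26 listed tuft genes were expressed highly enough to be tested. Their summed level went from 20.3 and 22.8 to 216 and 213 CPM, and Avil and Ptgs1 made up most of it at the low dose. Beside Avil and Ptgs1, Vav1, a signalling exchange factor, went from 0.101 and 0.219 to 5.37 and 6.095 CPM, and Kctd12, an auxiliary receptor subunit, fell (log2 fold change -0.52, SE 0.09).

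The crypt base went down broadly but not evenly. Of 25 crypt base genes 16 were lower and 3 higher, median -0.38. Lgr5, the R-spondin receptor that marks crypt base stem cells, had 149 and 133 CPM untreated and 33.4 and 56.1 CPM at the low dose. Smoc2, a matrix protein of these cells, had 239.9 and 204 CPM and then 66.3 and 93.9 CPM (log2 fold change -1.47, SE 0.14), and Msi1, an RNA-binding protein of progenitors, had a log2 fold change of -1.22 (SE 0.16). The water channel gene Aqp4 went from 169 and 176 to 76.3 and 78.6 CPM. Ascl2, the stem cell factor downstream of Wnt, did not pass (5.71 and 5.49 CPM untreated, 5.14 and 5.57 CPM at the low dose), and Phlda1 (log2 fold change 0.51, SE 0.12), Cd44 (log2 fold change 0.43, SE 0.04) and Soat1 (log2 fold change 0.42, SE 0.05) were higher. Low-dose replicate 1 was above replicate 2 in 2 of the 25 genes, and without it 12 were lower and 3 higher.

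Wnt, BMP and Notch genes had calls in both directions. The shares higher and lower were 22.2% and 33.3% for Wnt, 39.3% and 25% for BMP and 36.8% and 15.8% for Notch. Over all tested genes they were 20.8% and 13.8%, so the Wnt rises and Notch falls were near the share of all genes. Of 36 Wnt genes 8 were higher and 12 lower, median -0.28. The receptor Fzd7 fell (log2 fold change -0.84, SE 0.10), and so did the ligand-sorting protein Wls (log2 fold change -0.57, SE 0.09) and the feedback target Axin2 (log2 fold change -0.51, SE 0.11), while the target Sp5 (log2 fold change 0.73, SE 0.20), the Wnt inhibitor Apcdd1 (log2 fold change 0.51, SE 0.12) and the receptor Lgr4 (log2 fold change 0.32, SE 0.05) rose. Sfrp1, a secreted Wnt binder, went from 2 counts in all to 6.08 and 4.81 CPM. Of 28 BMP genes 11 were higher and 7 lower, median 0.15, with 7 and 3 when low-dose replicate 1 was left out and 9 and 4 without untreated replicate 1. All 4 Id genes, which BMP signalling turns on, rose: Id4 (log2 fold change 2.31, SE 0.15), Id3 (log2 fold change 1.18, SE 0.13), Id1, which went from 14.3 and 10.9 to 23.1 and 19.96 CPM, and Id2 (log2 fold change 0.53, SE 0.11). The ligand Bmp2 rose (log2 fold change 0.79, SE 0.08), while Bmp3, Bmp7 (log2 fold change -0.77, SE 0.09) and the stress-induced Gdf15 (log2 fold change -0.72, SE 0.11) fell. Of 19 Notch genes 7 were higher and 3 lower, median -0.14, and with upper quartile scaling 6 were higher and 6 lower, and without untreated replicate 2 the counts were 6 and 5. Notch4 had 1.22 and 0.898 CPM and then 16.04 and 14.03 CPM, and Rfng (log2 fold change 0.75, SE 0.05) and Notch2 (log2 fold change 0.600, SE 0.05) rose less. The 3 that fell were the ligands Dll1 (log2 fold change -0.46, SE 0.08) and Dll4 (log2 fold change -0.37, SE 0.12) and the receptor Notch1 (log2 fold change -0.38, SE 0.07).

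Growth factor genes had calls in both directions, the rises near the share of all genes. Of 35 tested ligands and receptors of the IGF, FGF, PDGF and VEGF families 8 were higher (22.9%, against 20.8% of all genes) and 12 lower (34.3%, against 13.8%), median -0.09. Fgfr2, an FGF receptor, had 14.9 and 12.03 CPM untreated, 3.49 and 4.44 CPM at the low dose and 0.962 and 1.44 CPM at 0.5 µg/ml. Fgfr3 went from 19.3 and 18.7 to 7.12 and 7.73 CPM and Fgfr4 from 9.096 and 5.35 to 2.08 and 3.099 CPM, and the ligands Pdgfa (log2 fold change -1.15, SE 0.11) and Fgf1 (log2 fold change -1.11, SE 0.11) fell. Fgf2 (log2 fold change 1.27, SE 0.15) and Pdgfb (log2 fold change 0.71, SE 0.08) rose. Guidance molecules also went both ways, 18 of 50 higher and 15 lower: Epha4, an ephrin receptor, had 2.47 and 2.49 CPM and then 20.8 and 20.3 CPM, whereas Nrp1, a co-receptor of semaphorins and VEGF, went from 10.8 and 9.24 to 2.00003 and 2.83 CPM and Slit2, a repellent ligand, from 36.1 and 33.7 to 12.4 and 13.5 CPM. Among integrins, the laminin receptor chain Itga7 went from 1.13 and 1.496 to 44.8 and 45.8 CPM and Itgb4, of hemidesmosomes, from 116 and 121 to 283 and 254 CPM. The collagen receptor Itga1 fell (log2 fold change -1.04, SE 0.08), as did the basement membrane collagens Col4a1 (log2 fold change -1.14, SE 0.15) and Col4a2 (log2 fold change -0.93, SE 0.19).

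Genes of stratified surface epithelium rose beyond Krt13. Of 24 tested keratins 15 were higher and 4 lower, median 1.82, or 0.62 with the 5 keratins that had no untreated count set to the least fold that 3 counts in each untreated library would give. Leaving out low-dose replicate 1 gave 12 higher and 2 lower keratins. Krt80 (log2 fold change 4.03, SE 0.07) and Krt20, a keratin of mature intestinal cells, which went from 39.97 and 50.96 to 141 and 119 CPM, rose. The simple epithelial pair split, with Krt8 higher (log2 fold change 0.68, SE 0.04) and its partner Krt18 lower, from 389 and 348 to 278 and 293 CPM. Of 18 tested cornified envelope genes 13 were higher and 0 lower, median 1.77, or 1.41 with bounds. Tgm1, the cross-linking transglutaminase, had 1.22 and 0.798 CPM and then 13.7 and 12.9 CPM, and the envelope proteins Evpl (log2 fold change 1.84, SE 0.08) and Sprr1a (log2 fold change 1.15, SE 0.10) rose. Of 20 surface epithelial factors 11 were higher and 1 lower, median 0.52 or 0.38 with bounds, and the lower genes numbered 3 without untreated replicate 2 and 0 without untreated replicate 1 or low-dose replicate 1. Elf5, a factor of glandular and keratinized epithelium, went from 0.08103 and 0.0199 to 6.34 and 5.55 CPM, and Sox21 (log2 fold change 1.53, SE 0.11), Barx2 (log2 fold change 1.21, SE 0.13) and Grhl1, which regulates desmosome genes (log2 fold change 0.97, SE 0.12), rose.

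Junction and surface-associated protein families shifted with them. Of 20 tight junction genes 11 were higher and 4 lower, or 9 and 2 without untreated replicate 1. Cldn18, the claudin of stomach and lung, went from 0.08103 and 0.279 to 12.7 and 10.5 CPM, and Cldn4 (log2 fold change 0.76, SE 0.11) and the adhesion molecule F11r (log2 fold change 0.71, SE 0.05) rose. Cldn2, the pore-forming claudin of crypts, went from 192 and 196 to 129.99 and 135 CPM and Cldn8 fell (log2 fold change -1.02, SE 0.12). Of 29 cadherin and desmosome genes 12 were higher and 5 lower, or 10 and 2 without low-dose replicate 1 and 12 and 3 without untreated replicate 1. Pkp1, the desmosomal plakophilin of stratified epithelium, had 78.3 and 81.8 CPM, then 202 and 202 CPM, then 453 and 461 CPM at 0.5 µg/ml, and plakoglobin, Jup, rose (log2 fold change 0.55, SE 0.04), while E-cadherin, Cdh1, did not pass (758 and 745 CPM against 743 and 753 CPM). Calcium-binding S100A genes were 8 of 9 higher. S100a14 had 19.2 and 20.96 CPM and then 89.4 and 90.3 CPM, and S100a6 84.8 and 74.98 CPM and then 280.5 and 267 CPM. Annexins, which bind membranes in the presence of calcium, were 8 of 12 higher and 3 lower: Anxa10 (log2 fold change 1.64, SE 0.10), a stomach annexin, Anxa7 (log2 fold change 0.92, SE 0.04) and Anxa2 (log2 fold change 0.91, SE 0.06) rose and Anxa4 fell from 856 and 861 to 616 and 668 CPM. Cytoskeletal genes were 21 of 43 higher and 4 lower, and those of at least 5 CPM that rose included the myosin light chain Myl7 (log2 fold change 2.58, SE 0.16) and the tubulins Tuba1a (log2 fold change 1.58, SE 0.08) and Tubb2a (log2 fold change 0.92, SE 0.06). The growth-linked stathmin Stmn1 fell (log2 fold change -0.38, SE 0.06).

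The Hippo pathway list was mixed among its best-known targets. Of 26 genes 10 were higher (38.5%, against 20.8% of all genes) and 4 lower (15.4%, near the 13.8% of all genes). The median was 0.06, and with upper quartile scaling 7 were lower. The TEAD factors Tead2, from 5.65 and 5.05 to 21.1 and 22.4 CPM, and Tead4 (log2 fold change 1.97, SE 0.11) and the coactivator TAZ, Wwtr1 (log2 fold change 1.403, SE 0.09), rose, while Yap1 did not pass (log2 fold change -0.097). Of the 2 matricellular targets, Ccn2 rose (log2 fold change 1.71, SE 0.13) and Ccn1 fell (log2 fold change -0.72, SE 0.18).

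**Figure D4:**
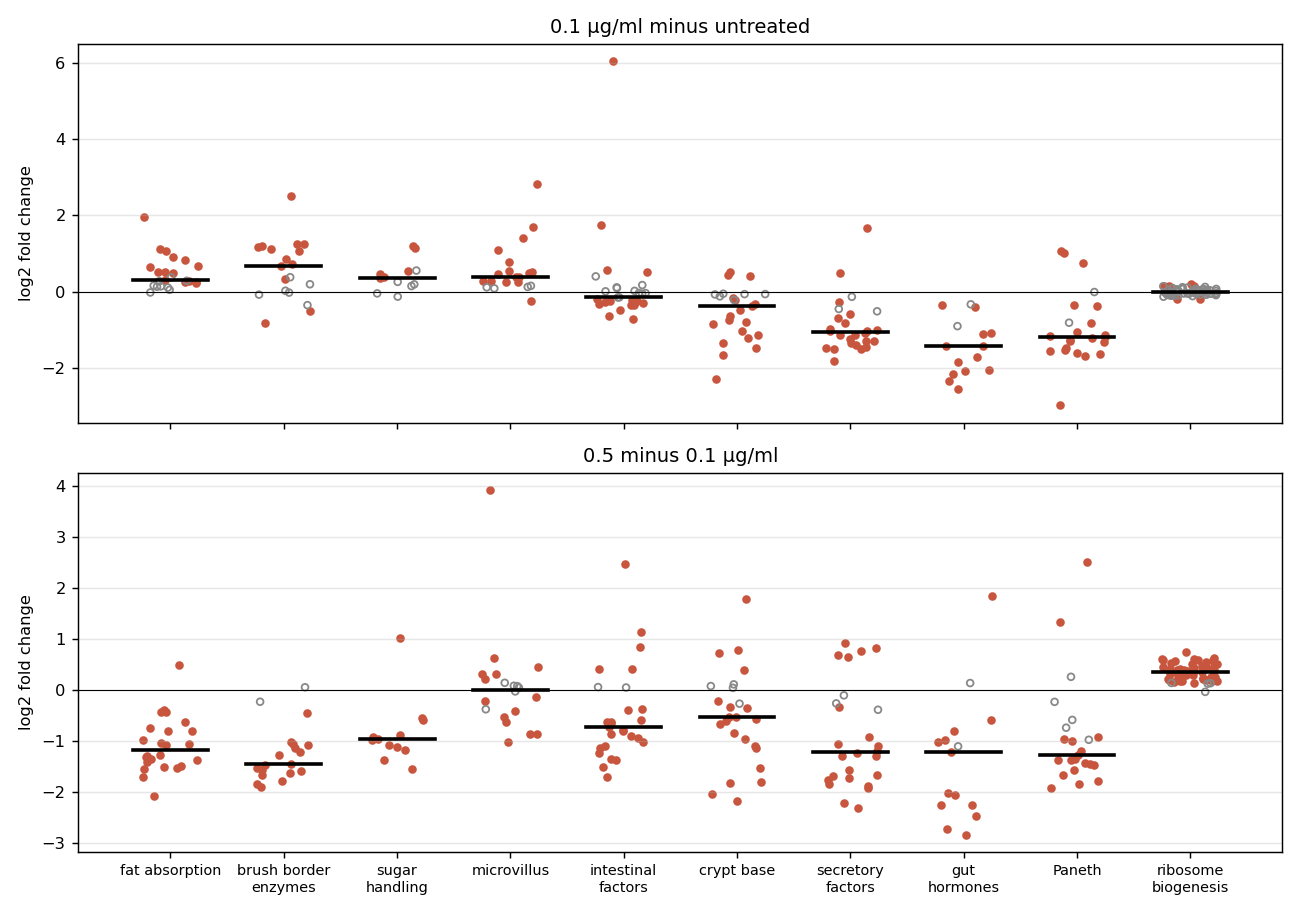
Fitted log2 fold change of each tested member of 10 gene lists at 0.1 µg/ml minus untreated (top) and 0.5 minus 0.1 µg/ml (bottom), where filled points passed the test, open points did not and bars are list medians. Both panels use the low-dose libraries. The fat absorption bar is above 0 at 0.30 in the top panel and below 0 in the bottom one, and the ribosome biogenesis points lie near 0 in the top panel and mostly above 0 in the bottom one.

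Ribosome production was a program that separated the 2 steps. Of 58 nucleolar and preribosome genes, textbook targets of Myc, 4 were higher and 2 lower at the low dose, median -0.02, although Myc itself had risen (log2 fold change 2.49, SE 0.06). The 4 were Nop16 (log2 fold change 0.19, SE 0.06), Nob1 (log2 fold change 0.16, SE 0.05), Ebna1bp2 (log2 fold change 0.16, SE 0.04) and Noc4l (log2 fold change 0.14, SE 0.05), and the 2 that fell Noc3l (log2 fold change -0.21, SE 0.06) and Utp20 (log2 fold change -0.195, SE 0.05). These calls lay close to the threshold: of the 15 alternative settings Noc4l lost its call in 15, Nob1 in 11, Ebna1bp2 in 10 and Nop16 in 9. The nucleolar proteins Npm1, at 1285 and 1298 CPM untreated and 1237 and 1267 CPM at the low dose, and Ncl, at 981 and 1006 and 863 and 965 CPM, did not pass. Between 0.1 and 0.5 µg/ml 54 of the 58 were higher and 0 lower, against 29.8% of all genes. Of 76 ribosomal proteins 8 were lower at the low dose (10.5%, under the 13.8% of all genes), 0 higher (against 20.8%) and 68 did not pass. Rps27 (log2 fold change -0.19, SE 0.05) and Rpl35a (log2 fold change -0.19, SE 0.04) led the lower ones. Such small shifts depend on the scaling: with upper quartile scaling 6 of the ribosome biogenesis genes were lower and 0 higher, and 24 ribosomal protein genes were lower. The ribosome biogenesis counts were 0 higher and 1 lower without untreated replicate 1, 2 and 2 without untreated replicate 2, 0 and 0 without low-dose replicate 1, and 0 and 4 without low-dose replicate 2. Without untreated replicate 1, 4 ribosomal protein genes were lower, and without low-dose replicate 1, 2 were.

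Other housekeeping programs moved by small amounts at the low dose, with most mitotic calls lower. The shares higher and lower were 16.2% and 2.5% for the respiratory chain and 4.17% and 6.25% for DNA replication. For mitosis they were 5.56% and 38.9%, and over all tested genes 20.8% and 13.8%. Of 80 nuclear respiratory chain genes 13 were higher and 2 lower, median 0.03, with Atp5e (log2 fold change 0.37, SE 0.06) and Atp5d (log2 fold change 0.29, SE 0.04), subunits of the ATP synthase, at the top. Without untreated replicate 1 these counts were 4 and 3, without untreated replicate 2 they were 7 and 2, without low-dose replicate 1 they were 3 and 0, without low-dose replicate 2 they were 14 and 1, and with upper quartile scaling 6 and 3. DNA replication genes were 2 of 48 higher, Brca1 (log2 fold change 0.29, SE 0.05) and Mcm10 (log2 fold change 0.16, SE 0.05), and 3 lower, Rfc3 (log2 fold change -0.46, SE 0.07), Pold1 (log2 fold change -0.33, SE 0.05) and Mcm7 (log2 fold change -0.22, SE 0.06). Of 36 mitotic genes 14 were lower and 2 higher, median -0.10, led by the kinesin Kif23 (log2 fold change -0.43, SE 0.05) and the centriole kinase Plk4 (log2 fold change -0.32, SE 0.06). The proliferation marker Mki67 went from 679 and 661 to 594 and 617 CPM and topoisomerase Top2a did not pass (log2 fold change 0.04). Without low-dose replicate 1, 4 mitotic genes were lower and 2 higher, and without untreated replicate 1, 8 were lower, and without untreated replicate 2 the counts were 10 lower and 4 higher. Replication genes were 1 higher and 2 lower without untreated replicate 1 or low-dose replicate 1. The lower ones numbered 7 without untreated replicate 2, 9 without low-dose replicate 2 or with DESeq2 size factors, and 13 with upper quartile scaling, while 1 was higher with that scaling and without low-dose replicate 2.

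Cyclin D genes rose while their kinases fell. Ccnd1 had 75.7 and 79.4 CPM untreated, 169 and 179 CPM at the low dose and 456.1 and 440.3 CPM at 0.5 µg/ml, and Ccnd2 had 327 and 339 CPM and then 586 and 589.9 CPM. Cdk6 (log2 fold change -0.56, SE 0.04), Cdk4 (log2 fold change -0.33, SE 0.05) and the progenitor factor Myb (log2 fold change -0.54, SE 0.07) fell. Over all 20 genes of the G1 and S phases 6 were higher and 4 lower, and without untreated replicate 1 or low-dose replicate 1, 3 were higher. Cdkn1a, the p21 inhibitor of these kinases, went from 130.2 and 141 to 226 and 230.4 CPM, Cdkn2b rose (log2 fold change 0.42, SE 0.10), and Cdkn1b (log2 fold change -0.299, SE 0.06) and Cdkn1c (log2 fold change -0.501, SE 0.14) fell. Among cell death genes 16 of 39 were higher and 4 lower, with the necroptosis kinase Ripk3 (log2 fold change 0.55, SE 0.05) and the pore-former Bak1 (log2 fold change 0.45, SE 0.05) highest and the survival gene Bcl2 lowest (log2 fold change -0.46, SE 0.08). Without low-dose replicate 1, 10 were higher and 3 lower.

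Metabolic genes rose in selected steps. Of 24 glycolysis genes 12 were higher and 2 lower, median 0.13, and without low-dose replicate 1 the counts were 7 and 0, and without untreated replicate 2 they were 10 and 1. Hk1, the first enzyme of the pathway, went from 43.3 and 50.1 to 99.9 and 100.6 CPM, and Eno3 (log2 fold change 0.69, SE 0.17), Hk2 (log2 fold change 0.38, SE 0.06) and the lactate dehydrogenase Ldha (log2 fold change 0.33, SE 0.04) rose. Of 24 antioxidant and pentose phosphate genes 13 were higher and 1, the catalase gene Cat (log2 fold change -0.24, SE 0.04), lower. Me1, the malic enzyme that makes NADPH, had 58.8 and 64.6 CPM, then 176 and 172 CPM, then 412 and 364 CPM at 0.5 µg/ml, and Nfe2l2, which encodes the antioxidant factor NRF2, rose (log2 fold change 0.55, SE 0.06), while its classical target Nqo1 did not pass (log2 fold change 0.14). Of 26 integrated stress response genes 10 were lower and 2 higher, or 5 and 1 without low-dose replicate 1 and 10 and 1 without low-dose replicate 2, with the mitochondrial folate enzyme Aldh1l2 (log2 fold change -1.04, SE 0.07) and the factor Atf5 (log2 fold change -0.63, SE 0.06) lowest and Atf4 not past the test (log2 fold change 0.097). The heat-shock genes Hspa1a, from 3.81 and 4.89 to 16.8 and 19.8 CPM, and Hspa1b (log2 fold change 1.68, SE 0.12) led 7 of 19 chaperone genes that rose, and the mitochondrial chaperonin Hspe1 (log2 fold change -0.28, SE 0.04) led the 3 that fell.

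Genes of metal and vitamin A handling had calls in both directions. The shares higher and lower were 42.9% and 14.3% for iron, 16% and 28% for zinc and metal and 38.1% and 14.3% for retinoid genes. Over all tested genes they were 20.8% and 13.8%. Slc11a2, the iron importer of the enterocyte surface, had 71.8 and 83.5 CPM untreated and 187 and 171 CPM at the low dose, and the exporter Slc40a1 rose less (log2 fold change 0.49, SE 0.12), while the reductases Steap1 (log2 fold change -1.25, SE 0.11) and Steap2 (log2 fold change -0.94, SE 0.05) fell. Over 14 iron genes 6 were higher and 2 lower. The metal-binding Mt1 went from 1762 and 1888 to 1335 and 1217 CPM and Mt2 from 1504 and 1549.7 to 959 and 908 CPM, whereas the zinc importers Slc39a10 (log2 fold change 1.64, SE 0.07) and Slc39a4 (log2 fold change 0.83, SE 0.05) rose. Of 25 genes of zinc and metal handling 4 were higher and 7 lower. Of 21 retinoid genes 8 were higher and 3 lower, with Aldh1a1, which makes retinoic acid, from 29.1 and 37.6 to 97.7 and 73.003 CPM, the carotene enzymes Bco2 (log2 fold change 1.03, SE 0.17) and Bco1 (log2 fold change 0.58, SE 0.14) and the carrier Rbp2 (log2 fold change 0.804, SE 0.16) among those that rose, and Lrat, the storage enzyme, among those that fell (log2 fold change -0.46, SE 0.10).

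Salt and water transport genes had calls in both directions, 46.4% higher and 17.9% lower, against 20.8% and 13.8% of all genes. Of 28 genes 13 were higher and 5 lower, median 0.22, and without untreated replicate 1 the counts were 8 and 6. Aqp3, a water and glycerol channel, had 0.486 and 0.758 CPM, then 32.2 and 28.2 CPM, then 124 and 129 CPM at 0.5 µg/ml. Scnn1a, a subunit of the epithelial sodium channel, went from 4.66 and 5.05 to 29.9 and 29.5 CPM, and Slc9a3, the apical sodium-proton exchanger, from 12.6 and 14.8 to 44.5 and 35.3 CPM. The proton pump subunit Atp12a went from 2 counts in all to 5.59 and 4.51 CPM, and the carbonic anhydrase Car2 rose (log2 fold change 1.55, SE 0.11). A pair of chloride secretion genes fell: Cftr, the apical chloride channel, had 222 and 222 CPM and then 133 and 139 CPM, and Slc12a2, the basolateral chloride importer, 774 and 662 CPM and then 312 and 394 CPM. Aqp1 (log2 fold change -0.97, SE 0.08), the bicarbonate importer Slc4a4 (log2 fold change -0.65, SE 0.06) and the chloride-bicarbonate exchanger Slc26a3 (log2 fold change -0.39, SE 0.06) fell too. Of 34 ABC transporters 14 were higher and 1, the drug exporter Abcb1a (log2 fold change -0.25, SE 0.05), lower, or 11 and 2 without low-dose replicate 1. The lipid transporter of the skin barrier, Abca12, had 0.851 and 0.997 CPM and then 11.1 and 10.1 CPM.

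Genes of DNA methylation and chromatin moved by small amounts. Of 18 DNA methylation genes 9 were lower and 1, the demethylating enzyme Tet2 (log2 fold change 0.55, SE 0.09), higher. Without low-dose replicate 1, 4 of them were lower. The methyltransferases Dnmt3a (log2 fold change -0.37, SE 0.05) and Dnmt3b (log2 fold change -0.35, SE 0.10) and the methyl-CpG reader Zbtb38 (log2 fold change -0.65, SE 0.06) fell. Of 53 chromatin enzymes 39 did not pass, 10 were lower (18.9%, against 13.8% of all genes) and 4 higher (7.55%, against 20.8%), so that the share called was 26.4% against 34.6% of all genes. The counts were 5 and 1 without low-dose replicate 1, 9 and 2 without low-dose replicate 2, 9 and 0 without untreated replicate 1, 6 and 3 without untreated replicate 2, and 17 and 2 with upper quartile scaling. The largest falls were of the Polycomb chromobox gene Cbx6 (log2 fold change -0.48, SE 0.07) and the deacetylase Hdac11 (log2 fold change -0.398, SE 0.05). Pluripotency genes other than the factors were 10 of 16 higher and 2 lower, or 8 and 1 without low-dose replicate 1. L1td1, an RNA-binding protein of pluripotent cells, went from 2 counts in all to 10.9 and 10.3 CPM, Esrrb, a nuclear receptor of naive stem cells, from 1 count to 5.28 and 5.97 CPM, and Tfcp2l1 from 12.2 and 12.6 to 54.1 and 53.98 CPM. Nr5a2, which the intestine also expresses, fell (log2 fold change -0.46, SE 0.06). Of the 29 pluripotency genes listed 16 were tested, 62.5% of them higher and 12.5% lower, against 20.8% and 13.8% of all genes. Nanog, Nr0b1, Fgf4 and Tdgf1 had no count in any of the 4 libraries. Low-dose counts were 4 and 2 for Zfp42, 1 and 0 for Utf1 and 3 and 0 for Dppa2.

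Innate immune genes had calls in both directions. The shares higher and lower were 42.4% and 9.09% for sensors and pyroptosis, 50% and 16.7% for NF-kB and 19.4% and 38.9% for interferon-stimulated genes. Over all tested genes they were 20.8% and 13.8%. Of 33 sensors and pyroptosis genes 14 were higher and 3 lower, median 0.07: Aim2, a cytosolic DNA sensor, went from 1.99 and 2.09 to 17.5 and 17.04 CPM, Nlrp10 from 0.142 and 0.1795 to 5.59 and 5.18 CPM, and Nod1 (log2 fold change 0.99, SE 0.10) and the pore-former Gsdmd (log2 fold change 0.69, SE 0.11) rose. Of 18 NF-kB genes 9 were higher and 3 lower, with the feedback inhibitors Tnip1 (log2 fold change 1.05, SE 0.05) and Nfkbia (log2 fold change 0.58, SE 0.06) leading. Interferon-stimulated genes were 14 of 36 lower and 7 higher, median -0.34, and among those of at least 5 CPM the chemokine Cxcl10 (log2 fold change -1.03, SE 0.16) and Ifitm3 (log2 fold change -0.99, SE 0.19) fell and Oasl1 (log2 fold change 1.14, SE 0.13) rose. These counts depend on single libraries. The sensor counts were 11 higher and 0 lower without low-dose replicate 2 and 13 and 1 without untreated replicate 2. Without low-dose replicate 1 the NF-kB counts were 3 higher and 2 lower, and without untreated replicate 2 they were 5 and 3. Interferon-stimulated genes were 7 higher and 5 lower without low-dose replicate 1, 8 and 7 without low-dose replicate 2, and 9 and 4 without untreated replicate 2.

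A count of genes by the leading letters of their symbol, which uses no list, gave 13 of 229 families of at least 8 tested genes with 60% or more of their members called in 1 direction, 10 higher and 3 lower. The Chmp genes, subunits of the ESCRT-III complex that pinches off membranes, were 9 of 10 higher with a median log2 fold change of 0.27. Serpinb genes, intracellular protease inhibitors, were 6 of 8 higher and 1 lower, with Serpinb5 going from 7.9003 and 8.16 to 21.97 and 19.9 CPM. Calpains (Capn), calcium-dependent proteases, were 6 of 10 higher and 0 lower, myosin light chains (Myl) 5 of 8 and 0, hydroxysteroid dehydrogenases (Hsd) 7 of 11 and 1, and Dock exchange factors 6 of 9 and 1. The Sprr, Krt, Anxa and Pou families completed this side. The Pou count, 5 of 8 higher and 1 lower, includes the induced factor Pou5f1, without which the family would be under the minimum of 8 genes. On the other side the alpha-defensins (Defa) were 9 of 14 lower and 0 higher, voltage-gated calcium channel subunits (Cacna) 5 of 8 lower and 2 higher, and chromobox genes (Cbx) 5 of 8 lower and 0 higher. Members of a family can share reads where copies are near-identical, as in Defa and Sprr.

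Most genes that changed at the low dose went further at 0.5 µg/ml. Of the 3531 higher genes 2354 (66.7%) were higher again, 650 (18.4%) did not pass between the doses and 527 (14.9%) were lower at 0.5 than at 0.1 µg/ml. Of the 2350 lower genes 1582 (67.3%) were lower again, 605 (25.7%) did not pass and 163 (6.94%) were higher. Sult1b1, a sulfotransferase of the gut, was one of those that turned, with 12.8 and 17.1 CPM untreated, 57.9 and 40.7 CPM at 0.1 µg/ml and 19.8 and 20.6 CPM at 0.5 µg/ml. Slc9a3 had 12.6 and 14.8, 44.5 and 35.3 and 21.1 and 19.8 CPM in that order, and Synpo, an actin-associated protein, 6.97 and 9.57, 25.8 and 18.7 and 8.66 and 8.27 CPM. These 3 were picked because they turned, so both low-dose libraries lay above the other 4 largely by that choice. In each of the 3, low-dose replicate 1 lay above replicate 2.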

How the data were processed

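RNA-seq of 6 libraries was used, 2 in each of 3 groups. Libraries were strand-specific, made from poly-A RNA and sequenced from both ends for 100 bp, per the labels' protocols. Tools named in the submitters' processing notes are STAR 2.7.3a, RSEM 1.3.3, Trim Galore and FastQC. The notes give 2 builds, GRCm39 and mm10, so no gene coordinates are taken from the tables. One table deposited by the authors holds expected counts of genes from RSEM, and the other holds deposited TPM values, which sum to 1e+06 in each library. RSEM divides reads shared by near-identical genes by estimate, and whether counting used strand is not stated in the sources, so overlapping antisense genes are uncertain. Symbols came from the GENCODE M21 gene table and matched 94% of identifiers.

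Expected counts were rounded to whole numbers. The 16975 genes kept by filterByExpr hold 99.96% of the counts. Libraries were scaled by TMM, and one edgeR 4.0.16 quasi-likelihood fit (R 4.3.3) held a mean per group with no covariate and 3 residual degrees of freedom. Calls are two-sided at a Benjamini-Hochberg adjusted p under 0.05 over all tested genes. With 2 against 2 libraries an exact permutation test could not go below 0.333, so the calls rest on the spread pooled across genes. The steps were tested on simulated data. Depth per library, 45.3 to 72.5 in units of 1e+06 counts, sets the precision for low genes.

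Gene lists are described by counts and medians, with 1 identifier per symbol (the more abundant). Named genes are the 4 factors, the 12 highest and 12 lowest log2 fold changes of at least 20 CPM, the 8 largest TPM rises and falls, up to 5 called members of a list in each direction of at least 5 CPM, central members that did not pass, and the largest changes that turned at 0.5 µg/ml; markers of other cell types and family members were named after their values were seen. The rankings by fold, by TPM and by turning left out the 4 factors, Gm and Rik symbols and marked pseudogenes. That by TPM also left out mitochondrially encoded genes. The members and lists were chosen with earlier results of these data known. Alternatives were other scalings and filters, DESeq2 1.42.0, limma 3.58.1 on log2(TPM + 1) or log2(TPM + 0.1), a replicate block, only the 4 libraries compared, and leaving out each library. Some members of the lists enter the counts and medians but are not reported here by name.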

Additional observations from a re-analysis of the deposited data

How the results depend on the processing

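Every gene called both in the reported fit and in an alternative had the same direction in both, in each of the 15 alternatives run. The counts of genes higher and lower moved by over 1.5 times with limma on log2(TPM + 1), which called 1945 higher (392 at least 2-fold) and 1560 lower (87 at least 2-fold), with limma on log2(TPM + 0.1), 2024 (733) and 1484 (205), and with limma on every gene above 0, 1484 (379) and 1036 (78). Those fits test log2 TPM of fewer or more genes and no counts. Leaving out 1 library at a time gave 2500 to 3191 higher and 1381 to 2295 lower genes, the lowest of each without low-dose replicate 1. Upper quartile scaling gave 3037 higher and 2986 lower genes, so that 50.4% of calls were higher, where the reported fit gave 3531 and 2350. With filter and fit on the 4 compared libraries only, 16219 genes were tested. Of these 2910 were higher (968 at least 2-fold) and 2319 lower (468 at least 2-fold). Replicate numbers did not pair the samples: deviations of same-numbered untreated and low-dose libraries had a correlation of -0.039, and with the replicate number as a block 3217 genes were higher and 2048 lower. Low counts limit the folds of genes near 0 in the untreated libraries. Genes near no change had no stable sign: leaving out 1 library at a time, the low-dose log2 fold change ran from -0.059 to 0.10 for Mgam, -0.10 to 0.71 for Lct, -0.0298 to 0.23 for Hnf4g, -0.11 to 0.19 for Top2a and -0.024 to 0.003696 for Cdh1. Mgam was also at -0.018 with upper quartile scaling and at -0.012 in the 3 limma fits. Of 285 genes named against the untreated libraries, 272 were called, 201 of them in all 15 alternatives, and 0 were called in the opposite direction in any. Leaving out 1 library ended the edgeR call of 27 named genes. Without low-dose replicate 1, 23 were lost (adjusted p 0.0511 to 0.266): Apcdd1, Bco1, Ccn1, Cdkn1c, Cdkn2b, Dll4, Dnmt3b, Ebna1bp2, Eno3, Foxa2, Id2, Mcm10, Mcm7, Mki67, Mttp, Nob1, Noc3l, Noc4l, Nop16, Rps27, Slc40a1, Tpt1 and Utp20. Without low-dose replicate 2, 11 were lost (0.0512 to 0.167), of which Gstt1, Phlda1, Sp5 and Ugt2b36 are not in that list. Without untreated replicate 1, 15 were lost (0.0506 to 0.203) and without untreated replicate 2, 9 (0.0552 to 0.110028), all of them among these 27. Leaving out a 0.5 µg/ml library, which enters the fit through the shared spread, ended 4 calls without replicate 1 and 1 without replicate 2.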
